A study of Homo sapiens with 6 samples.

Results

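The integrin and laminin chain genes of BT-549 cells were taken from the table of raw counts by symbol, as every ITGA, ITGB1 to ITGB8, LAMA, LAMB and LAMC row. This gave 38 genes of the 37887 rows, with 18 integrin alpha, 8 integrin beta, 5 laminin alpha, 4 laminin beta and 3 laminin gamma genes. The rule itself used no measured value. Of the 38 genes, 27 were among the 15450 genes with enough counts for a test and 11 were not.

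BT-549 is an established triple-negative breast cancer (TNBC) cell line, and the comparison was of 3 control libraries (shCTL) with 3 libraries of cells silenced for PBRM1 (shPBRM1), the bromodomain subunit of the PBAF chromatin remodeling complex. By title, the former carry a control shRNA and the latter an shRNA against PBRM1. The treatment labels and the series design instead give BT-549 cells that all carry a tetracycline-inducible PBRM1 shRNA, exposed to vehicle (0.1% DMSO) in the shCTL group or to doxycycline (DOX) at 500 ng/ml in the shPBRM1 group. What DOX does and what the loss of PBRM1 does cannot be told apart here. The data come from 1 cell line and, by the treatment labels, from 1 inducible vector, whereas by the titles the shRNA differs between the groups. The cultures were in triplicate, without further detail, so that p-values measure the spread between these libraries only.

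Integrins are receptors made of 1 alpha and 1 beta chain that span the cell membrane, bind matrix or other cells outside, and hold the actin cytoskeleton inside through talin, kindlin and vinculin. Laminins are secreted trimers of an alpha, a beta and a gamma chain and are the main building blocks of basement membranes, the sheets on which epithelium rests. Laminins are bound by integrins with ITGA3, ITGA6 or ITGA7, fibronectin by those with ITGA5 or ITGAV, fibronectin and VCAM1 by those with ITGA4, and collagen by those with ITGA1, ITGA2, ITGA10 or ITGA11. ITGB1 joins most alpha chains, and LAMC1 is in most laminins.

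PBRM1 itself had normalized levels of 157, 157 and 161 CPM (counts scaled by library size) in shCTL replicates 1, 2 and 3, and of 43.3, 40.9 and 41.7 CPM in shPBRM1 replicates 1, 2 and 3. Its log2 fold change was -1.91 (SE 0.027, adjusted p = 9.98e-23 in the quasi-likelihood test of edgeR after Benjamini-Hochberg adjustment), which is in the direction of the titles. The libraries held between 36429395 and 65096297 counts, so that the floor of detection, set at 3 counts per library, was 0.0471 to 0.0804 CPM for counting error alone. Among markers of other cells, the 5 leukocyte genes summed to at most 1.30 CPM, the 3 endothelial genes to at most 0.496 CPM and the 3 platelet genes to at most 0.159 CPM in any library. The mesenchymal markers VIM, CDH2, ZEB1 and FN1 summed to 1479 to 1654 CPM, and ESR1 was at or under the floor in every library. PGR had 12, 4 and 12 counts in shCTL and 8, 2 and 0 in shPBRM1. ERBB2 averaged 51.3 CPM in shCTL and 50.02 CPM in shPBRM1. The 7 epithelial markers summed to 12.8 to 13.3 CPM in shCTL and to 73.1 to 82.2 CPM in shPBRM1, with KRT8 and KRT18 called higher and CDH1 called lower, and EPCAM averaged 0.0604 and 0.117 CPM. In a bulk culture, fewer cells of a kind and less RNA per cell cannot be told apart.

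Of the 27 tested genes, 9 were called, for which the adjusted p had to be under 0.05 and the level to differ more than 2-fold. This is 33.3% of the tested integrin and laminin genes, beside 12.6% of all genes tested. ITGA4, ITGA5 and ITGAV were higher in shPBRM1 (2.87% of all genes were called higher), and ITGA7, ITGA11, ITGB8, LAMA3, LAMA4 and LAMB3 were lower (9.68% of all genes). At an adjusted p under 0.05 without a fold minimum, which 64.7% of all genes reached, 9 members rose and 11 fell. The values of the groups did not overlap for 20 of the 27 members, as for 68.3% of all genes. These last counts are therefore close to the background.

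Receptor and ligand chains were then counted separately. Among the 17 tested integrin genes, 7 rose and 5 fell past the adjusted p, with a median log2 fold change of 0.40. Among the 10 tested laminin genes, 2 rose and 6 fell, with a median of -0.68. The median over all genes tested was -0.0080, and 31.5% of all genes rose and 33.2% fell at this threshold. The difference between receptors and ligands was not tested.

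**Figure D1:**
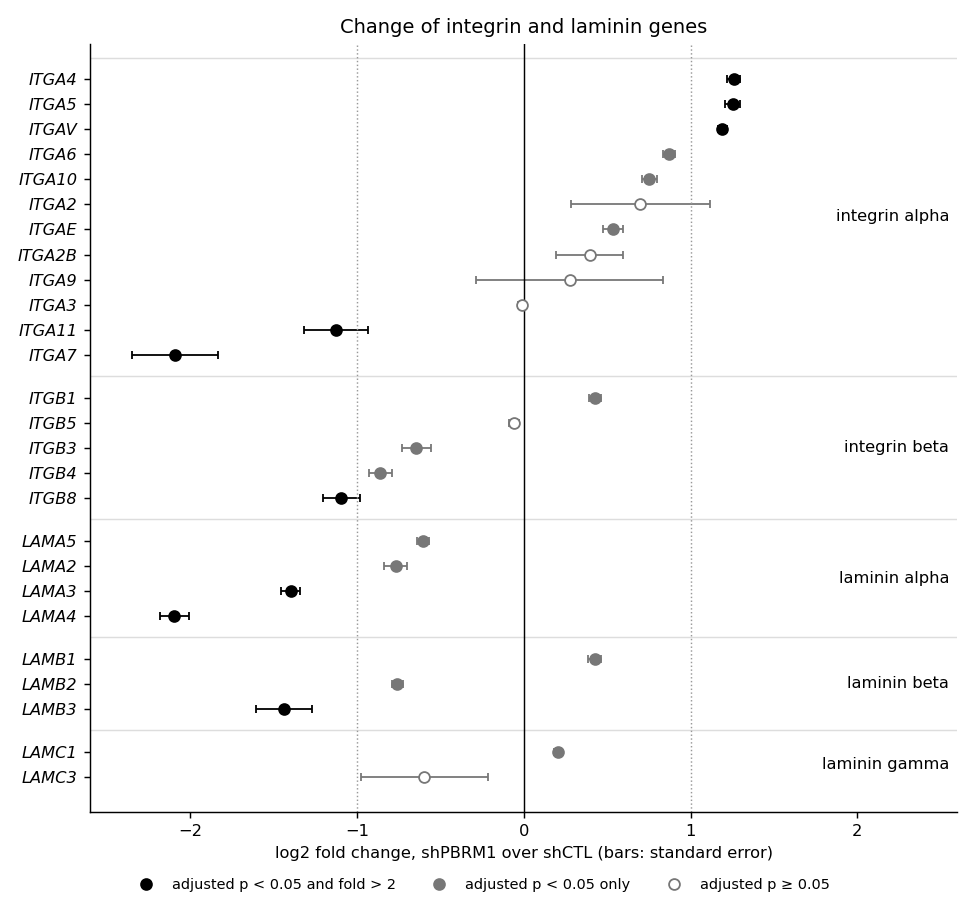
Log2 fold change of shPBRM1 over shCTL (horizontal axis) for 26 of the 27 tested genes, grouped by chain class; points are estimates of 3 against 3 libraries, bars are standard errors, and dotted lines mark a fold of 2. The 3 called genes on the right (ITGA4, ITGA5 and ITGAV, 1.19 to 1.26) are integrin alpha genes, and every tested laminin alpha gene lies on the left.

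Sequences just before the start of transcription are shown for the called alpha chains that the text turns on most, the 3 integrin alpha genes that were higher and the 2 laminin alpha genes that were lower. They are the 250 bases before a RefSeq start in the GRCh38.p14 build, 5′ to 3′ on the strand of the gene, and the RefSeq table used here held such windows for 26 of the 38 members. They lie at chr2:181457136-181457385 on the plus strand for ITGA4, chr12:54419267-54419516 on the minus strand for ITGA5, chr2:186589806-186590055 on the plus strand for ITGAV, chr18:23872770-23873019 on the plus strand for LAMA3 and chr6:112254568-112254817 on the minus strand for LAMA4. Capitals mark matches, on either strand, to the AP-1 letters TGANTCA, the TEAD letters GGAATG or the E-box letters CACCTG bound by ZEB and SNAIL factors.
ITGA4: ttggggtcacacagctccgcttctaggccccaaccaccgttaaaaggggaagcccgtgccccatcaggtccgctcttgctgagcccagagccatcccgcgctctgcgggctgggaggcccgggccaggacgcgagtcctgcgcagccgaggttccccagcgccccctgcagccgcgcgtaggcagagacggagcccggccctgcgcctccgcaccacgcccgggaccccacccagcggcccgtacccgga
ITGA5: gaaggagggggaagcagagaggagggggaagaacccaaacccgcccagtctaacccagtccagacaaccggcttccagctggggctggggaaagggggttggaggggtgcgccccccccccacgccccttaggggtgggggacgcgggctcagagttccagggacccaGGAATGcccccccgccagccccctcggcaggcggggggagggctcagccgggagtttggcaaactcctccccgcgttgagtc
ITGAV: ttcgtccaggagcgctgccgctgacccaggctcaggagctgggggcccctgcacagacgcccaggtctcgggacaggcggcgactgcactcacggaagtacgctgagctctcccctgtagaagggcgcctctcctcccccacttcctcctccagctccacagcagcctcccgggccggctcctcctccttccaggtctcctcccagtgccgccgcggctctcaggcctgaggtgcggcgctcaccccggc
LAMA3: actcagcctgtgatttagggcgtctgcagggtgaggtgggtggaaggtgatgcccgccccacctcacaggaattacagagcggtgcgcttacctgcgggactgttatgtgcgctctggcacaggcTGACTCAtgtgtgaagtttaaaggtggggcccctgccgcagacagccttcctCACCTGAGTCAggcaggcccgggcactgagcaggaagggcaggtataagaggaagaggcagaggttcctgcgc
LAMA4: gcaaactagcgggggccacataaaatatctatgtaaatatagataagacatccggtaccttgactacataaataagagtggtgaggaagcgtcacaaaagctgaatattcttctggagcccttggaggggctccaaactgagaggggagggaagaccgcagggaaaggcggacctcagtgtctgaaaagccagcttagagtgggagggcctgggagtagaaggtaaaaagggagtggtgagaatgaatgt

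The integrin windows are rich in G and C, with 72.8%, 70.0% and 70.8% of bases in ITGA4, ITGA5 and ITGAV, and the laminin windows had 60.4% in LAMA3 and 48.4% in LAMA4. ITGA5 held GGAATG 82 bases before its start. LAMA3 held TGANTCA at 125 and 69 bases before its start, and the nearer match overlaps CACCTG at 73 bases. The windows of LAMA3 and LAMA4 lie wholly inside the gene as GENCODE v29 draws it (chromosome 18, 23689443 to 23956222, and chromosome 6, 112108760 to 112254939). Those of ITGA4 and ITGA5 lie partly inside, with the GGAATG of ITGA5 in the inner part, and only that of ITGAV lies wholly before its gene. Counts per gene do not separate the starts. Neither ITGA4, ITGAV nor LAMA4 held any of these letters, nor the interferon response pattern (GAAA, any 2 bases, GAAA) or the STAT letters TTCNNNGAA.

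The 26 members had 33 such windows, since some have several starts. TGANTCA was in 2 of the 33, those of LAMA3 and LAMB3, beside 6.57% of all windows of this length in the table. GGAATG was in 4 windows, of ITGA5, ITGA10, ITGB1 and LAMA2 (11.9% of all windows), and CACCTG in 8 (17.5%). TTCNNNGAA was in 2, of ITGAE and LAMB2 (6.57%), and the interferon response pattern in 1, of ITGB5 (3.02%). A match of letters is a description of the sequence, and no occupancy was measured in these libraries.

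Among the integrin alpha genes, ITGA5 and ITGAV, which are chains of fibronectin and vitronectin receptors, and ITGA4 were called higher in the silenced cells. ITGA5, the alpha chain of the main fibronectin receptor (chromosome 12, 54395261 to 54419460), had 133, 135 and 127 CPM in the shCTL libraries and 317, 324 and 299 CPM in the shPBRM1 libraries. Its log2 fold change was 1.25 (SE 0.044, adjusted p = 7.14e-18, edgeR), and the lowest silenced library was above the highest control library. ITGAV, which binds fibronectin, vitronectin and latent TGF-beta as a partner of ITGB1, ITGB3, ITGB5, ITGB6 or ITGB8, lies on chromosome 2 (186590065 to 186680901). It had 189, 188 and 188 CPM in shCTL against 425, 419.7 and 446 CPM in shPBRM1, a log2 fold change of 1.19 (SE 0.027, adjusted p = 1.27e-17, edgeR). The 3 control values of ITGAV were nearly equal (SD 0.850 CPM), and the groups were far apart. ITGA4, better known from leukocytes, where it binds VCAM1 and fibronectin, lies on chromosome 2 as well (181457202 to 181536187). Its level was 24.1, 25.2 and 24.5 CPM in shCTL and 61.1, 56.7 and 58.9 CPM in shPBRM1, a log2 fold change of 1.26 (SE 0.036, adjusted p = 2.35e-16, edgeR). As with ITGA5 and ITGAV, the groups did not overlap.

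ITGA2B, the platelet chain that pairs with ITGB3, was the other tested chain of the group that binds the RGD sequence (arginine, glycine and aspartate) of fibronectin. It had 0.738 ± 0.161 CPM (SD, n = 3) in shCTL and 0.956 ± 0.0939 CPM in shPBRM1, and did not pass the adjusted p (0.195, edgeR). ITGA8, the fourth RGD-binding chain, had no count in any library, which allows a level of up to the floor given above.

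The laminin receptors were split. ITGA6, which pairs with ITGB1 or with ITGB4 of hemidesmosomes, rose from 182 ± 5.89 CPM to 332 ± 9.12 CPM (n = 3 each), a log2 fold change of 0.87 (SE 0.035, adjusted p = 4.49e-15, edgeR) that stays under the fold minimum. ITGA3, the other epithelial laminin receptor chain, had 362 ± 8.17 CPM in shCTL and 359 ± 6.02 CPM in shPBRM1, and its log2 fold change was -0.01 (SE 0.023, adjusted p = 0.780, edgeR). The range of ITGA3 in the shPBRM1 libraries, 353 to 365 CPM, lies within that of the shCTL libraries, 353 to 369 CPM. ITGA7, the laminin receptor chain of muscle (chromosome 12, 55684568 to 55716043), was called lower, from a low level. It had 100, 115 and 79 counts in shCTL (2.68, 2.37 and 1.57 CPM) and 35, 20 and 28 counts in shPBRM1 (0.583, 0.514 and 0.439 CPM). The log2 fold change of ITGA7 was -2.09 (SE 0.26, adjusted p = 1.24e-07, edgeR), and the groups did not overlap, although the control libraries were spread more widely than those of the abundant chains.

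Collagen receptor chains also went in both directions. ITGA10, found mainly in cartilage, rose from 24.2 ± 1.13 to 40.9 ± 1.35 CPM (log2 fold change 0.75, SE 0.047, adjusted p = 3.07e-11, edgeR). ITGA11, a collagen receptor chain of fibroblasts (chromosome 15, 68296533 to 68432162), was called lower with 30, 40 and 28 counts in shCTL (0.804, 0.823 and 0.555 CPM) and 22, 11 and 21 counts in shPBRM1 (0.366, 0.283 and 0.329 CPM). Its log2 fold change was -1.13 (SE 0.19, adjusted p = 0.00573, edgeR), the highest adjusted p among the 9 called genes, and it rests on few counts. ITGA2 had 14 to 18 counts in shCTL and 11 to 44 in shPBRM1 and did not pass (adjusted p = 0.114, edgeR), and ITGA1 had at most 15 counts in a library.

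ITGAE, the chain that holds lymphocytes to E-cadherin, was the only tested chain of the 5 leukocyte alpha genes. It rose from 9.52 ± 0.625 to 13.7 ± 0.344 CPM (log2 fold change 0.54, SE 0.058, adjusted p = 2.33e-06, edgeR). Its partner ITGB7 had at most 7 counts in any library. ITGAL, ITGAM, ITGAX and ITGAD had at most 7 counts in a library and were not tested. Their partner ITGB2, also under the count filter, had 2, 9 and 12 counts in shCTL and 3, 0 and 2 in shPBRM1, and was called lower when the filter was left out. ITGA9, a relative of ITGA4, had 4 to 27 counts and a log2 fold change of 0.27 with an SE of 0.56.

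Of the 5 tested beta genes, 3 fell and 1 rose past the adjusted p, beside 33.2% and 31.5% of all genes. ITGB1, the common partner (chromosome 10, 32900319 to 33005792), was the most abundant of the 38 genes per length, and had 1965, 2091 and 2091 CPM in shCTL against 2689, 2769 and 2821 CPM in shPBRM1. The log2 fold change of ITGB1 was 0.43 (SE 0.036, adjusted p = 3.74e-11, edgeR), so that a modest change without overlap between the groups was seen for the chain shared by 12 of the alpha genes. ITGB8, a partner of ITGAV that takes part in the release of TGF-beta (chromosome 7, 20330702 to 20415754), was called lower. Its levels were 4.42, 4.18 and 3.69 CPM in shCTL and 1.90, 1.70 and 2.09 CPM in shPBRM1 (log2 fold change -1.10, SE 0.11, adjusted p = 5.19e-07, edgeR), again without overlap.

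ITGB4, the hemidesmosome chain, fell from 13.3 ± 0.783 to 7.31 ± 0.452 CPM (log2 fold change -0.86, SE 0.070, adjusted p = 4.22e-09, edgeR). ITGB3, the vitronectin receptor chain, had 10.6 ± 0.972 CPM in shCTL and 6.76 ± 0.358 CPM in shPBRM1, and its log2 fold change was -0.64 (SE 0.088, adjusted p = 1.50e-06, edgeR). The ITGB3 value is uncertain, since 51.6% of its exon length is shared with a gene on the same strand in GENCODE v29. ITGB5, the other vitronectin receptor chain, had 60.6 ± 0.926 CPM in shCTL and 58.2 ± 1.99 CPM in shPBRM1, which did not pass (adjusted p = 0.205, edgeR). ITGB6 had at most 14 counts in a library.

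**Figure D2:**
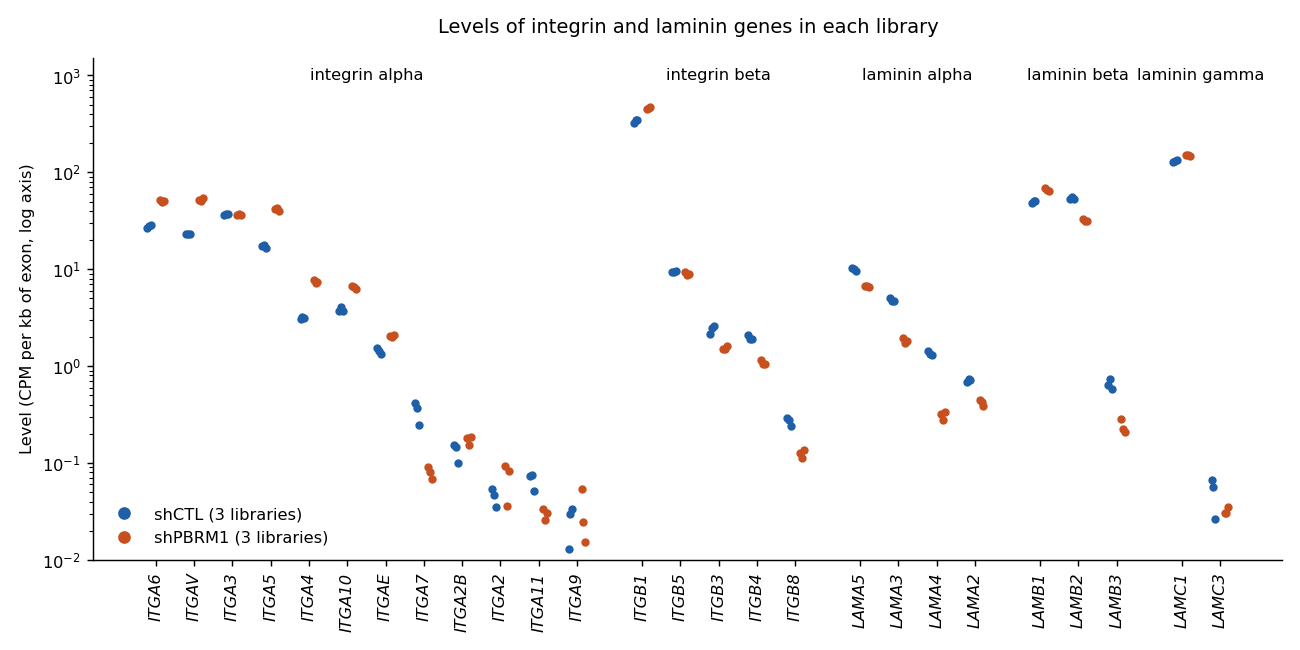
Level of 26 of the 27 tested genes in each of the 6 libraries, in CPM per kilobase of exon on a log axis; blue points are the 3 shCTL libraries and orange points the 3 shPBRM1 libraries, with genes ordered by level within each chain class. ITGB1 (341 in shCTL and 459 in shPBRM1) stands above all alpha genes, and LAMC1 (130 and 150) above all laminin alpha and beta genes.

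Chains were compared by their level per kilobase of merged exon (CPM per kb), and by this measure 4 alpha genes made up most of the alpha class. In shCTL they were ITGA3 at 37.0 ± 0.834, ITGA6 at 27.9 ± 0.901, ITGAV at 23.0 ± 0.104 and ITGA5 at 17.4 ± 0.566 CPM per kb (SD, n = 3). In shPBRM1 they were ITGAV at 52.4 ± 1.68, ITGA6 at 50.9 ± 1.40, ITGA5 at 41.3 ± 1.67 and ITGA3 at 36.6 ± 0.614 CPM per kb. There, ITGAV (51.1 to 54.3) and ITGA6 (49.4 to 52.2) overlapped. ITGA3 was the highest of the 4 in every shCTL library with merged exons, longest transcripts or no division by length. The order in shPBRM1 depended on the length: by longest transcript ITGA3 was still the highest at 23.9% of the alpha class, with ITGA5 at 22.8%, ITGAV at 22.3% and ITGA6 at 21.6%, and without division by length it came second at 23.1% after ITGAV at 27.7%. As a share of the summed alpha level per merged exon length, ITGA3 was 32.4% ± 0.333 in shCTL and 18.5% ± 0.370 in shPBRM1, ITGAV was 20.1% and 26.5%, and ITGA5 was 15.2% and 20.9%. The share of ITGA6 was 24.4% and 25.7%. The fall in the share of ITGA3 was seen with the other lengths too, from 39.9% to 23.9% by longest transcript. Shares within a class depend on each other, since a higher share of ITGAV and ITGA5 lowers that of the rest.

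Summed over the class, the 18 alpha genes came to 114 ± 1.55 CPM per kb in shCTL and 198 ± 1.501 in shPBRM1, a ratio of 1.73. The 8 beta genes came to 355 ± 12.3 and 471 ± 10.8 CPM per kb, a ratio of 1.33, of which ITGB1 was 96.0% in shCTL and 97.5% in shPBRM1. ITGB1 was thus in excess of the sum of its 12 alpha partners in every library, at 2.95 to 3.09 times that sum in shCTL and 2.27 to 2.41 times in shPBRM1. ITGAV, at 23.0 CPM per kb in shCTL and 52.4 in shPBRM1, was far below its partner ITGB1 (341 and 459). With ITGB1 left out, ITGAV was 1.90 ± 0.0603 times the sum of its other partners ITGB3, ITGB5, ITGB6 and ITGB8 in shCTL. In shPBRM1 it was 4.89 ± 0.181 times that sum, which includes the uncertain ITGB3 value. The level of ITGA6 over that of ITGB4 was 12.8 to 15.02 in the shCTL libraries and 45.1 to 49.1 in the shPBRM1 libraries. These ratios of transcripts do not give the amounts of assembled receptors, which were not measured.

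**Figure D3:**
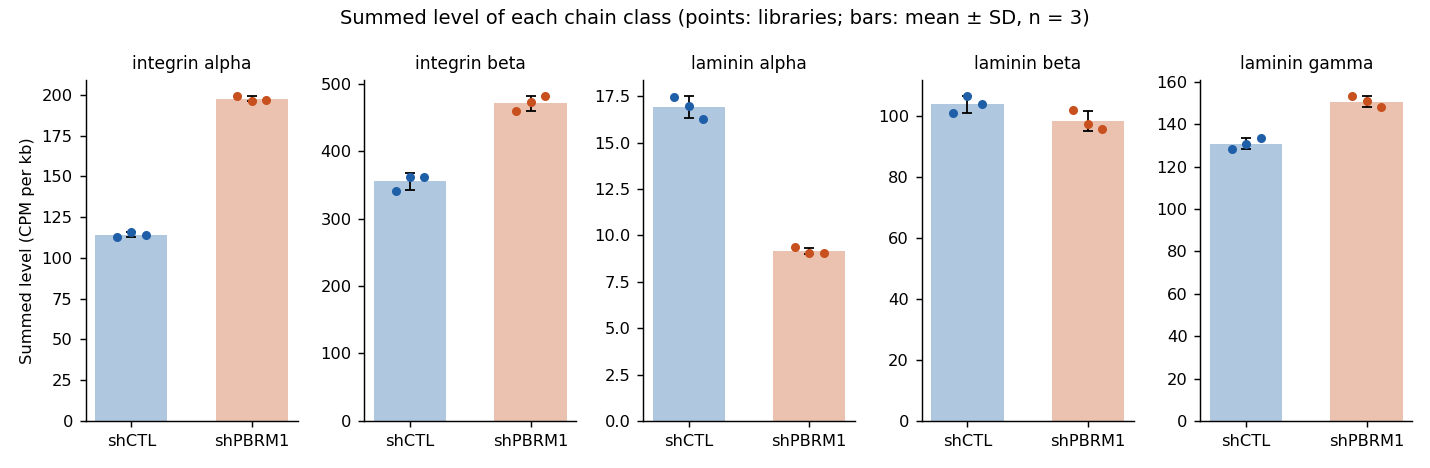
Summed level of each chain class in CPM per kilobase of exon, each panel with its own vertical axis from 0; bars and error bars are the mean and SD of 3 libraries and points are single libraries. The alpha, beta and laminin gamma sums are higher in every shPBRM1 library than in every shCTL library, the laminin alpha sum is lower (16.9 to 9.16), and the laminin beta sums overlap (104 and 98.3).

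Laminin alpha genes were lower in the silenced cells. All 4 tested genes of this class fell past the adjusted p, beside 33.2% of all genes, with a median log2 fold change of -1.08. LAMA1, the embryonic chain, had no count in any library. LAMA4, the chain of vessel walls and mesenchymal cells (chromosome 6, 112108760 to 112254939), had 16.6, 15.3 and 15.01 CPM in shCTL and 3.71, 3.24 and 3.89 CPM in shPBRM1. The LAMA4 log2 fold change of -2.10 (SE 0.088, adjusted p = 2.73e-15, edgeR) and that of ITGA7 were the lowest of the 27. LAMA3, the alpha chain of the laminin that anchors epithelium through hemidesmosomes, had 73.8, 69.8 and 69.0 CPM in shCTL and 28.5, 25.4 and 26.7 CPM in shPBRM1. Its log2 fold change was -1.40 (SE 0.057, adjusted p = 3.23e-17, edgeR), and for both genes the groups were separated by several times their spread.

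LAMA5, the broadly expressed alpha chain, and LAMA2, the chain of muscle and nerve, fell by less. LAMA5 had 143 ± 5.82 CPM in shCTL and 94.3 ± 1.17 CPM in shPBRM1 (log2 fold change -0.60, SE 0.036, adjusted p = 7.47e-13, edgeR). LAMA2 had 7.40 ± 0.255 and 4.35 ± 0.334 CPM (log2 fold change -0.77, SE 0.070, adjusted p = 6.80e-07, edgeR). With these changes the sum of the alpha class went from 16.9 ± 0.606 to 9.16 ± 0.173 CPM per kb, a ratio of 0.541. LAMA5 made up 59.2% ± 0.596 of it in shCTL and 72.0% ± 1.10 in shPBRM1, LAMA3 28.6% and 19.96%, and LAMA4 7.98% and 3.41%. The fibroblast markers PDGFRA, PDGFRB, DCN and LUM moved the same way as LAMA2, LAMA4 and ITGA11, which fibroblasts also express. All 4 of them were called lower, with a summed level of 6.31 to 7.42 CPM in shCTL and 1.05 to 1.67 CPM in shPBRM1, and DCN and LUM had at most 8 counts in a shPBRM1 library. Their part in the result was not tested.

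Of the 3 tested beta genes, 1 rose and 2 fell past the adjusted p, beside 31.5% and 33.2% of all genes. LAMB3, the beta chain that assembles with LAMA3 (chromosome 1, 209614870 to 209652466), was called lower, with 2.97, 3.48 and 2.697 CPM in shCTL and 1.33, 1.05 and 0.973 CPM in shPBRM1. Its log2 fold change was -1.44 (SE 0.17, adjusted p = 2.51e-07, edgeR), close to that of LAMA3, and the groups did not overlap.

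LAMB1 and LAMB2, the alternative beta chains of most other laminins, changed in opposite directions. LAMB1 rose from 401 ± 11.2 to 539 ± 19.98 CPM (log2 fold change 0.43, SE 0.039, adjusted p = 4.47e-09, edgeR). LAMB2, typical of synapses and the kidney filter, fell from 369.5 ± 10.5 to 219 ± 5.28 CPM (log2 fold change -0.76, SE 0.031, adjusted p = 6.15e-14, edgeR). Per kilobase of merged exon, LAMB1 was 0.903 to 0.938 times LAMB2 in the shCTL libraries and 2.02 to 2.11 times LAMB2 in the shPBRM1 libraries. Accordingly, LAMB1 went from 47.5% ± 0.550 to 67.4% ± 0.502 of the beta class, while the class as a whole, at 104 ± 2.75 and 98.3 ± 3.14 CPM per kb, overlapped between groups. Which of the pair was higher in shCTL depended on the length, since LAMB1 made up 51.4% of the class by longest transcript (70.7% in shPBRM1) and 51.9% without division by length (71.04% in shPBRM1). LAMB4 had at most 2 counts in a library.

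LAMC1, the gamma chain of most laminins (chromosome 1, 183023460 to 183145592), had 1072, 1094 and 1117 CPM in shCTL and 1283, 1263 and 1239 CPM in shPBRM1. The change was small but without overlap (log2 fold change 0.21, SE 0.023, adjusted p = 1.41e-05, edgeR). LAMC1 made up 99.5% of the gamma class in shCTL and 99.6% in shPBRM1. LAMC3 had 10 to 21 counts in shCTL and 9 to 17 in shPBRM1 and did not pass (adjusted p = 0.236, edgeR). The summed gamma level was 7.75 ± 0.437 times the alpha level in shCTL and 16.5 ± 0.152 times in shPBRM1, and the beta level was 6.15 ± 0.328 and 10.7 ± 0.144 times the alpha level. Alpha transcripts were thus the scarcest of the laminin classes in all 6 libraries.

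**Figure D4:**
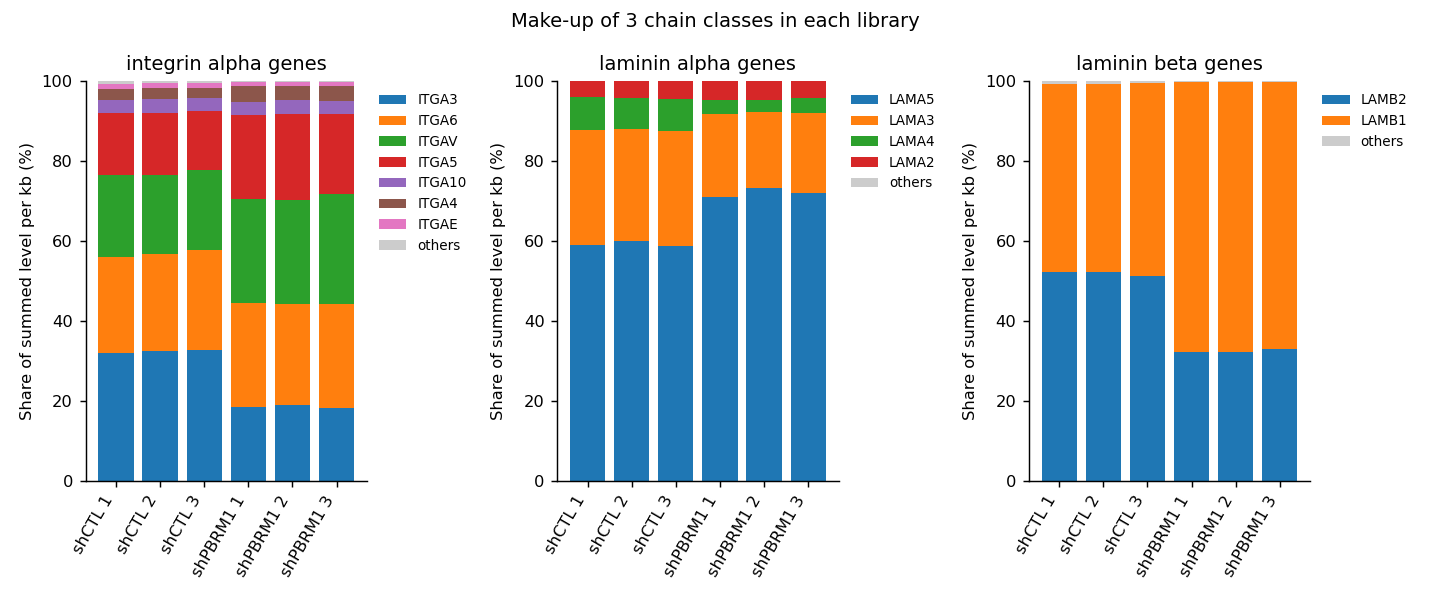
Share of each gene in the summed level (CPM per kilobase of exon) of the integrin alpha, laminin alpha and laminin beta classes, in percent, as a stacked bar for each of the 6 libraries. In the 3 shPBRM1 bars ITGA3 narrows from 32.4% to 18.5%, LAMA5 widens from 59.2% to 72.0%, and LAMB1 widens from 47.5% to 67.4%; shares are for merged exon lengths, and the order of genes within a bar changes with the length used.

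The position of the chains was also compared. ITGA6, ITGA4 and ITGAV lie within 14.3 Mb of chromosome 2 (172427354 to 186680901 in GRCh38), and all 3 rose. Of the 49 other tested genes in this stretch, 15 rose and 18 fell past the adjusted p, beside 31.5% and 33.2% of all genes. Of the same 49 genes, 1 was called higher and 4 lower, beside 2.87% and 9.68% of all genes. Their median log2 fold change was -0.092.

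Genes of the adhesion complex, which joins integrins to actin, were taken from a list of 50. Of these 49 were tested and 7 were called, all of them lower (14.3%). Of all genes 12.6% were called, with 9.68% lower and 2.87% higher. Without the fold minimum 19 rose and 15 fell in the same edgeR test (31.5% and 33.2% of all genes). The 4 called genes with the largest change were TNS4, TNS1, NEDD9 and FYN. TNS4 and TNS1, both tensins that bind integrin tails, had few counts, with 13, 38 and 32 in shCTL against 1, 4 and 8 in shPBRM1 for TNS4, and 10, 18 and 22 against 8, 0 and 2 for TNS1. NEDD9, a scaffold of the Cas family, had 3.18 ± 0.496 CPM in shCTL and 0.756 ± 0.0836 CPM in shPBRM1, a log2 fold change of -2.06 (SE 0.16, adjusted p = 2.06e-09, edgeR). FYN, a kinase of the Src family, had 33.7 ± 0.570 and 11.6 ± 0.805 CPM (log2 fold change -1.55). The genes VCL, PXN and BCAR1 were chosen after their values were seen. VCL (vinculin) and PXN (paxillin) both rose, with log2 fold changes of 0.67, and BCAR1, the founding Cas scaffold, was called lower at -1.29. Of the talins, TLN1 did not pass (0.07, adjusted p = 0.135, edgeR) and TLN2 fell (-0.80). Of the kindlins, FERMT2 (-0.07, adjusted p = 0.0619, edgeR) and FERMT3, at few counts, did not pass. FERMT1 was higher and passed narrowly (0.23, SE 0.15, adjusted p = 0.0437, edgeR), with groups that overlapped.

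Laminin partners of the basement membrane included FRAS1 and BCAM, which had the lowest fold changes of the 3 lists. Of 22 genes 19 were tested and 5 were called, all of them lower (26.3%). Of all genes 12.6% were called, with 9.68% lower and 2.87% higher. Without the fold minimum 7 rose and 7 fell, beside 31.5% and 33.2% of all genes. AGRN, the proteoglycan agrin, which binds the laminin gamma chain, had 294, 301 and 287 CPM in shCTL and 46.2, 49.0 and 47.1 CPM in shPBRM1, a log2 fold change of -2.63 (SE 0.032, adjusted p = 1.94e-24, edgeR). BCAM, a receptor for the LAMA5 chain, went from 41.2 ± 1.10 to 5.43 ± 0.559 CPM (log2 fold change -2.94, SE 0.088). NID2, a nidogen that links laminin to collagen IV, had 8.48 ± 0.366 and 1.86 ± 0.427 CPM (log2 fold change -2.22, SE 0.19). FRAS1 had 30, 26 and 30 counts against 6, 0 and 4. Both DAG1, the precursor of dystroglycan, and RPSA, a ribosomal protein also described as a laminin receptor, were chosen after their values were seen, and they rose with log2 fold changes of 0.93 and 0.70.

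**Figure D5:**
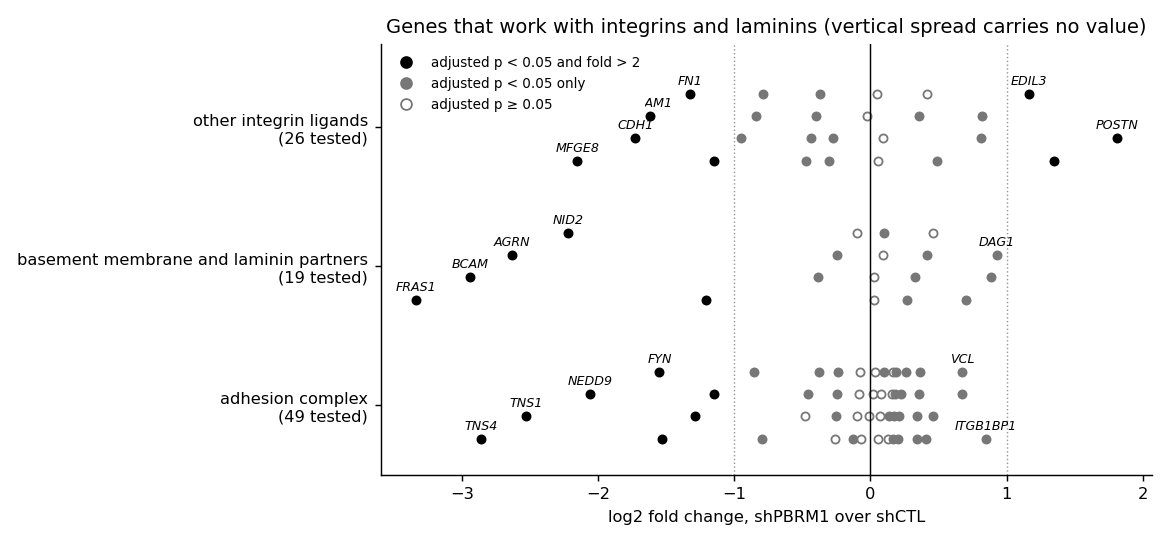
Log2 fold change of shPBRM1 over shCTL (horizontal axis) for the tested genes of 3 lists that work with integrins and laminins; each point is a gene, filled by whether it passed the adjusted p and the fold minimum, and dotted lines mark a fold of 2. The adhesion complex and the basement membrane list have called genes only on the left (7 and 5), whereas the other ligands have 3 on the right and 5 on the left. Of all genes tested, 9.68% were called lower and 2.87% higher.

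Among the other integrin ligands, 26 of 35 were tested, 3 were called higher and 5 lower (30.8%). Of all genes 12.6% were called, with 2.87% higher and 9.68% lower. Without the fold minimum 7 rose and 14 fell, beside 31.5% and 33.2% of all genes. POSTN (periostin), a matrix ligand of ITGAV receptors, had 23.0, 23.3 and 23.5 CPM in shCTL and 82.6, 81.0 and 81.8 CPM in shPBRM1, a log2 fold change of 1.81 (SE 0.011, adjusted p = 1.48e-20, edgeR). MFGE8, a secreted RGD ligand of ITGAV receptors, went the other way, from 12.2 ± 0.700 to 2.79 ± 0.531 CPM (log2 fold change -2.15). VCAM1, a ligand of ITGA4, was lower, at 3.87 ± 0.144 and 1.25 ± 0.113 CPM (log2 fold change -1.62). CDH1 (E-cadherin), bound by ITGAE, was lower as well, at 5.002 ± 0.363 and 1.51 ± 0.313 CPM (log2 fold change -1.73). Under the fold minimum, 4 ligands of the list rose past the adjusted p and 9 fell. The 4 were L1CAM, TGFB1, JAM2 and CCN1, with log2 fold changes of 0.82, 0.81, 0.49 and 0.35. The 9 that fell were TGFBI (-0.95), FBN2 (-0.84), FBN1 (-0.79), ICAM5 (-0.47), TNC (-0.43), THBS1 (-0.40), F11R (-0.37), ICAM1 (-0.31) and SVEP1 (-0.27). FN1 (fibronectin), the ligand of ITGA5, was chosen after its values were seen. It had 554 ± 8.97 CPM in shCTL and 220.9 ± 11.5 CPM in shPBRM1, a log2 fold change of -1.33 (SE 0.046, adjusted p = 1.05e-17, edgeR), while ITGA5 rose by 1.25 on the same scale. EDIL3, another secreted RGD ligand chosen after its values were seen, was called higher at 1.17.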

How the data were processed

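RNA-seq was available for 3 shCTL and 3 shPBRM1 libraries of BT-549 cells, grouped and numbered by the sample titles. The values the authors deposited are raw counts for each gene symbol, with no normalization. The submitters' processing notes name CASAVA 1.8.2, STAR 2.7.9a, featureCounts, DESeq2 1.24.0 and GRCh38.p7; the annotation and the strand setting of the counting are not given in the sources used here, and the library kit was stranded. Reads of a gene and of an overlapping antisense gene may therefore not be separated. Of the 37887 rows, 14 carry dates in place of symbols and 12608 had no count.

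Counts were tested in R 4.3.3 with edgeR 4.0.16 (TMM, filterByExpr, quasi-likelihood F-test, Benjamini-Hochberg adjustment over 15450 genes). CPM are TMM-normalized, and standard errors are from log2 CPM with a prior count of 2. Lengths and positions are from GENCODE v29 (GRCh38), with exons merged. On simulated counts edgeR recovered 200 of 200 genes changed 4-fold among 15411 tested, with 0 false calls. The changed genes were not drawn from those of low level, and the noise was without pairing. Calls on few counts or near the fold minimum, such as ITGA11 and ITGB8, are therefore not covered by it.

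The result of 1 tested member is not reported here. The members, lists and tests were chosen with earlier results of these data known. Called members, ITGB1, LAMC1 and ITGAV are given by library, other members by mean or range with up to 3 examples per class by level, and up to 4 called genes of each list by fold change. Same-numbered libraries of both groups deviated together (correlations of 0.733, 0.593 and 0.418 across 5622 genes, against -0.670 to 0.464 for other pairs). The highest of the other pairs was above the lowest same-numbered pair. The numbers, which come from the titles, were taken to pair the libraries in the replicate block, which is an alternative. The main edgeR tests and the standard errors compare the groups without this pairing. Libraries of a group differed by more than sampling noise (chi-square per degree of freedom 4.66 to 22.6). Alternatives were DESeq2 1.42.0, other scalings, filters and thresholds, other gene lengths, the replicate block and each library left out.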

Additional observations from a re-analysis of the deposited data

How the results depend on the processing

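The 3 higher and 6 lower integrin and laminin genes and the 3 higher and 17 lower genes of the 3 lists were the same with DESeq2, with RLE factors, with library size only and with the replicate block (3 and 6 members, 3 and 17 list genes), and the block changed no other call. Leaving out each library in turn gave 3 to 3 higher and 6 to 6 lower members, and 3 to 3 higher and 17 to 17 lower list genes. Without a fold change minimum the counts were 9 higher and 11 lower members, and 33 higher and 36 lower list genes. Without a filter on low counts, ITGB2 was added to the lower members (7), and IBSP to the list genes (18). ITGA11 was not called with a mean of at least 50 counts, at an adjusted p under 0.001 or with edgeR's glmTreat, and ITGB8 was not called with glmTreat, which left 5, 5 and 4 lower members. Among list genes, a mean of at least 50 counts lost FRAS1, TNS1, TNS4 and JAM3, an adjusted p under 0.001 lost TNS1 and JAM3, and glmTreat lost NPNT, TES and JAM3. Of 319 values of members under alternatives, 316 kept their direction and their side of the adjusted p, and the 20 members past it did so throughout. ITGA2 passed without shPBRM1 replicate 2 (log2 fold change 0.97, adjusted p = 0.0291, edgeR), ITGB5 passed with library size only (-0.11, adjusted p = 0.0308, edgeR), and ITGA9, at 0.27, ranged from -0.44 without shPBRM1 replicate 1 to 0.65 without shPBRM1 replicate 3; the cause was not tested. The log2 ratio of the summed integrin alpha level, 0.79 per merged exon length, was 0.74 without division by length and 0.73 per longest transcript. For the laminin beta sum it was -0.078, -0.028 and -0.034. The order of ITGA3, ITGA5, ITGA6 and ITGAV in shPBRM1, and that of LAMB1 and LAMB2 in shCTL, changed with the length. Depth limits the 11 untested members, which had at most 15 counts in a library.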
